A study of Mus musculus with 6 samples.

Results

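Aminoacyl-tRNA synthetases are the enzymes that join each amino acid to its transfer RNA (tRNA). Their transcripts were followed in bone marrow cells labelled as hematopoietic stem cells (HSCs), the cells from which all blood lineages arise. The genes were chosen by symbol: a 1-letter amino acid code followed by "ars", with 1, 2 or no digit, together with Farsa, Farsb, Eprs and Ears2. This gave 37 genes of the 30803 in each table, 20 for cytosolic enzymes and 17 for mitochondrial enzymes, whose names end in 2. Wild-type (WT) mice aged 12 months gave both groups: 3 libraries of cells with high surface MHC class II (MHCII_hi), and 3 libraries of cells with low surface MHC class II (MHCII_lo). MHC class II presents peptides to T cells and is carried above all by dendritic cells, B cells and macrophages. The labels name no treatment or transgene, and neither sort gates nor animal numbers nor pooling are stated there. Whether replicate libraries stem from different mice is likewise not stated: the p-values then reflect spread among these libraries alone, possibly technical.

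Most animal cells carry separate sets of synthetases for the cytosol and for mitochondria, both encoded in the nucleus. Class I and class II enzymes differ in the fold of the catalytic domain and bind the tRNA from opposite sides. Several cytosolic enzymes assemble with the scaffold proteins Aimp1, Aimp2 and Eef1e1 into the multi-synthetase complex. Gars and Kars each encode both a cytosolic and a mitochondrial enzyme and are counted here as cytosolic. Eprs carries the glutamate and the proline enzyme in 1 protein. Mammals have no mitochondrial glutamine enzyme: the tRNA is first loaded with glutamate and then amidated by the Gatb, Gatc and Qrsl1 proteins. When amino acids run short, uncharged tRNA activates the kinase encoded by Eif2ak4 (GCN2), translation of the transcription factor Atf4 increases, and Atf4 with C/EBP partners induces many cytosolic synthetase genes through a short element in their promoters.

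Those promoters were searched for this element. The search was not among the planned comparisons, and its matches are shown as a description without a test. RefSeq promoter windows on GRCm38.p6, from 250 bases before to 50 after the gene start, were at hand for 27 of the 37 genes, 13 cytosolic and 14 mitochondrial. The letters TGATGNAA were searched on both strands, so that TTNCATCA is the same element on the other strand. They occurred in 5 of the 13 cytosolic windows (Aars, Gars, Iars, Tars and Yars) and in 0 of the 14 mitochondrial windows, against 4.51% of 27025 genes with a window and 2.74% of the 8334 of them that were tested. Below, 30 bases around 1 match in each gene are printed 5′ to 3′ on the gene's strand, with the element in capitals. The windows lie at chr6:55037960-55037989 (plus strand) for Gars, chr13:49682126-49682155 (plus) for Iars, chr15:11399655-11399684 (minus) for Tars, chr8:111033840-111033869 (plus) for Aars and chr4:129189895-129189924 (plus) for Yars.
Gars: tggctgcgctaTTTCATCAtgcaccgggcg
Iars: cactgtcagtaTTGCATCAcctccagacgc
Tars: caggagtcccgTTGCATCAgctggttagct
Aars: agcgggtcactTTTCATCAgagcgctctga
Yars: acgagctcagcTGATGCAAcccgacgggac
A match is a description of these letters and not a bound site.

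For contrast, the windows of Farsa and Lars2 are shown, which encode the phenylalanine enzyme's alpha subunit and the mitochondrial leucine enzyme and had the largest decreases among the genes with a window in each compartment. The 120 bases before the gene start lie at chr8:84856866-84856985 (plus strand) for Farsa and at chr9:123366807-123366926 (plus strand) for Lars2. Capitals in Farsa mark the letters AAGATGGCG, the core of the YY1 motif, and ACTTCCGG, an ETS motif read on the other strand.
Farsa: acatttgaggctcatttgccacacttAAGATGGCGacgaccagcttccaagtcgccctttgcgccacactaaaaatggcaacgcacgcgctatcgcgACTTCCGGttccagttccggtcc
Lars2: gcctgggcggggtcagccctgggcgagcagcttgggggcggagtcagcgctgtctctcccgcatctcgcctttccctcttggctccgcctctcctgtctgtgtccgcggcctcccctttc
No motif searched was found in these 120 bases of Lars2. The other motifs, searched on both strands, were CACGTG (E-box) in 5 of the 27 genes against 12.4% of tested genes with a window, the NRF1 motif in 5 against 12.5%, CCGGAAGT (ETS) in 3 against 10.2% and AAGATGGCG (YY1) in 4 against 4.14%. The NRF1 and E-box letters occurred in genes of both compartments, and so did the ETS and YY1 letters.

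Values are FPKM, which count fragments per transcript length and per library size, and they carry no read depth. A mean of 1 FPKM or more across libraries was required for testing, which left 12037 genes, and a gene was called when its adjusted p from limma was under 0.05. Between 11978 and 12054 genes per library reached 1 FPKM. Log2 values of tested genes correlated at 0.991 to 0.993 within the groups and at 0.945 to 0.947 between them. The 4 class II genes were all higher in MHCII_hi. Of the HSC markers, Kit stood at 13.7 to 14.2 FPKM in MHCII_hi and 14.2 to 14.5 FPKM in MHCII_lo, while 6 of the 12, namely Procr, Slamf1, Mecom, Fgd5, Hoxb5 and Tek, had means under 1 FPKM, so the label is only partly borne out by these markers. All 16 neutrophil markers were higher in MHCII_hi, where they summed to 54421 to 55051 FPKM and took 15.8 to 15.9% of all FPKM, against 9272 to 9355 FPKM and 2.83 to 2.86% in MHCII_lo. None of them was at 0. Early granulocyte markers went mostly the other way: of the 5 tested, 1 was higher and 3 were lower, with a median log2 fold change of −0.36. They summed to 4831 to 4887 FPKM in MHCII_hi and 5786 to 5931 FPKM in MHCII_lo. Of 9 dendritic and monocyte markers tested, 9 were lower, with a median log2 fold change of −0.96 and sums of 201 to 208 FPKM in MHCII_hi and 391.8 to 400.7 FPKM in MHCII_lo. Of 10 erythroid markers 9 were lower (median −0.63, sums of 287 to 295 FPKM in MHCII_hi and 426 to 439 FPKM in MHCII_lo). Of 8 plasma cell markers tested, 4 were higher and 1 was lower. FPKM are shares of a library, and the median log2 fold change over the 12037 tested genes was −0.12. With the total taken without the neutrophil markers, that median was −0.01, and fold changes below are also given relative to the median of all tested genes. Beyond this rescaling, the part of the marker differences in the results was not tested. In such bulk libraries, fewer cells of a type and less RNA per cell cannot be told apart.

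The synthetase genes spanned a wide range of levels, with the cytosolic set above the mitochondrial set in both groups. Per length, the median cytosolic gene stood at 19.3 FPKM in both MHCII_hi and MHCII_lo. The median mitochondrial gene stood at 3.61 FPKM in MHCII_hi and 4.23 FPKM in MHCII_lo. The most abundant was Nars, the asparagine enzyme, at 53.1 ± 1.08 FPKM in MHCII_hi and 50.6 ± 0.609 FPKM in MHCII_lo (SD, n = 3 each). Cars was the lowest of the cytosolic set, with a mean of 5.83 FPKM over the 6 libraries. Among mitochondrial genes, Lars2 had the highest mean, 17.6 FPKM, and Iars2 the next, 10.7 FPKM. Pars2, the mitochondrial proline enzyme, was the only gene of the 37 under the limit for testing. It had 0.64, 0.68 and 1.45 FPKM in MHCII_hi and 1.26, 0.75 and 0.62 FPKM in MHCII_lo, so its libraries overlapped.

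**Figure D1:**
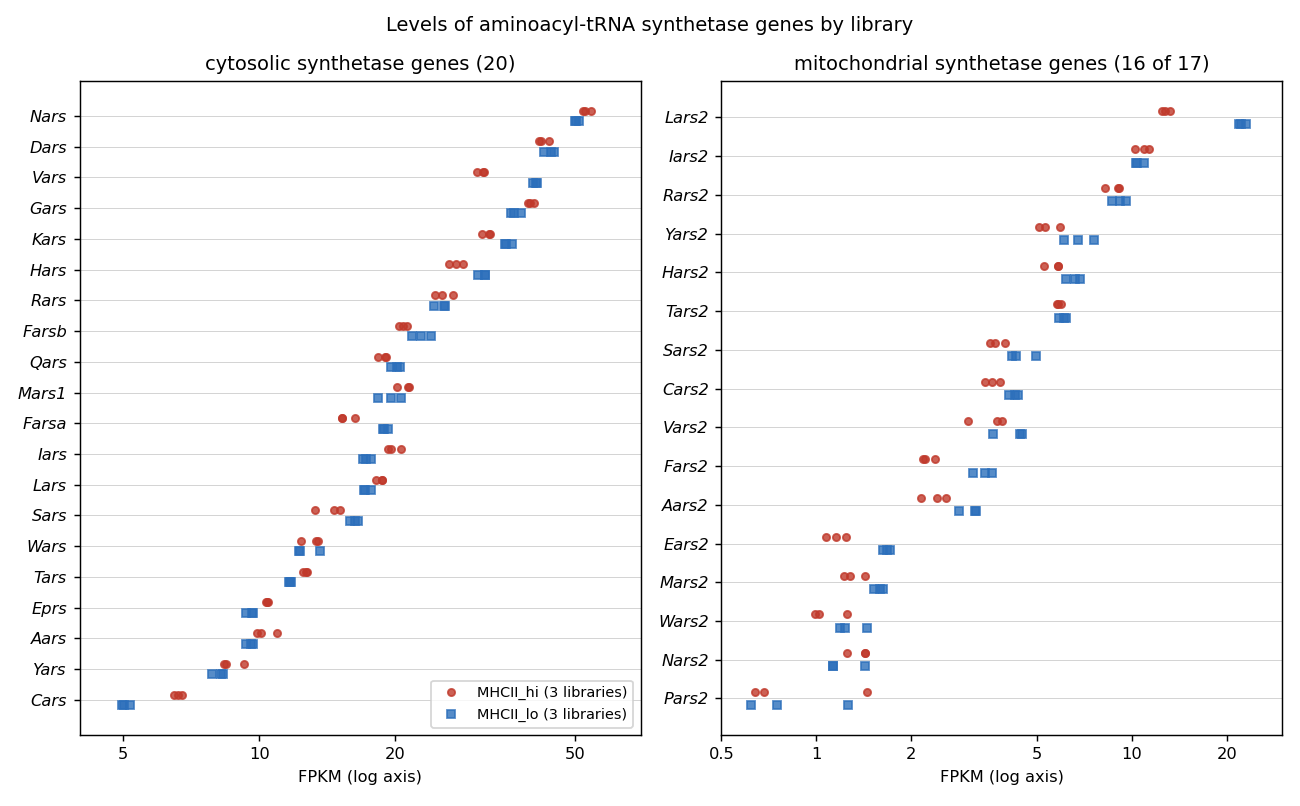
FPKM on a log axis for the 20 cytosolic (left) and 16 of the 17 mitochondrial (right) synthetase genes, with 1 point per library, 3 of MHCII_hi (red circles) and 3 of MHCII_lo (blue squares). The widest gap is that of Lars2, with 12.41 to 13.23 FPKM in MHCII_hi against 21.91 to 23.01 FPKM in MHCII_lo.

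More cytosolic than mitochondrial genes were higher in MHCII_hi. Of the 20 cytosolic genes, 7 were higher in MHCII_hi (Cars, Iars, Eprs, Gars, Tars, Lars and Nars), 7 were lower (Vars, Farsa, Hars, Sars, Kars, Farsb and Qars) and 6 were not called. Over all tested genes, 60.9% were called, 20.4% higher and 40.6% lower. The 35% of cytosolic genes that were higher lie above that background, while the 35% that were lower are close to it. Of the 16 mitochondrial genes tested, 0 were higher and 8 were lower (Lars2, Fars2, Ears2, Yars2, Aars2, Sars2, Cars2 and Hars2), with 0 higher at an unadjusted limma p under 0.05 too. The 50% that were lower are near the background of 40.6%. The median log2 fold change was 0.05 for cytosolic genes and −0.18 for mitochondrial genes, beside −0.12 for all tested genes. Libraries of the groups did not overlap for 9 cytosolic genes higher and 7 lower, and for 0 mitochondrial genes higher and 9 lower, where 22.6% of all tested genes lay wholly higher and 45.0% wholly lower. The split depends on scaling. With median-ratio size factors, 11 cytosolic genes were higher and 2 lower, against 1 and 3 mitochondrial genes. With the total taken without neutrophil markers, 12 and 2 cytosolic and 1 and 3 mitochondrial genes were called. The median of cytosolic genes lay above that of all tested genes by 0.17 in the FPKM as deposited and by 0.15 to 0.19 under the 4 other scalings. All of these scalings but quantile normalization (0.15) apply 1 factor per library. Such a factor moves this gap little or not at all, so they are no check of it. The gap was 0.07 without the filter on low values and 0.11 with a pseudocount of 5.

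**Figure D2:**
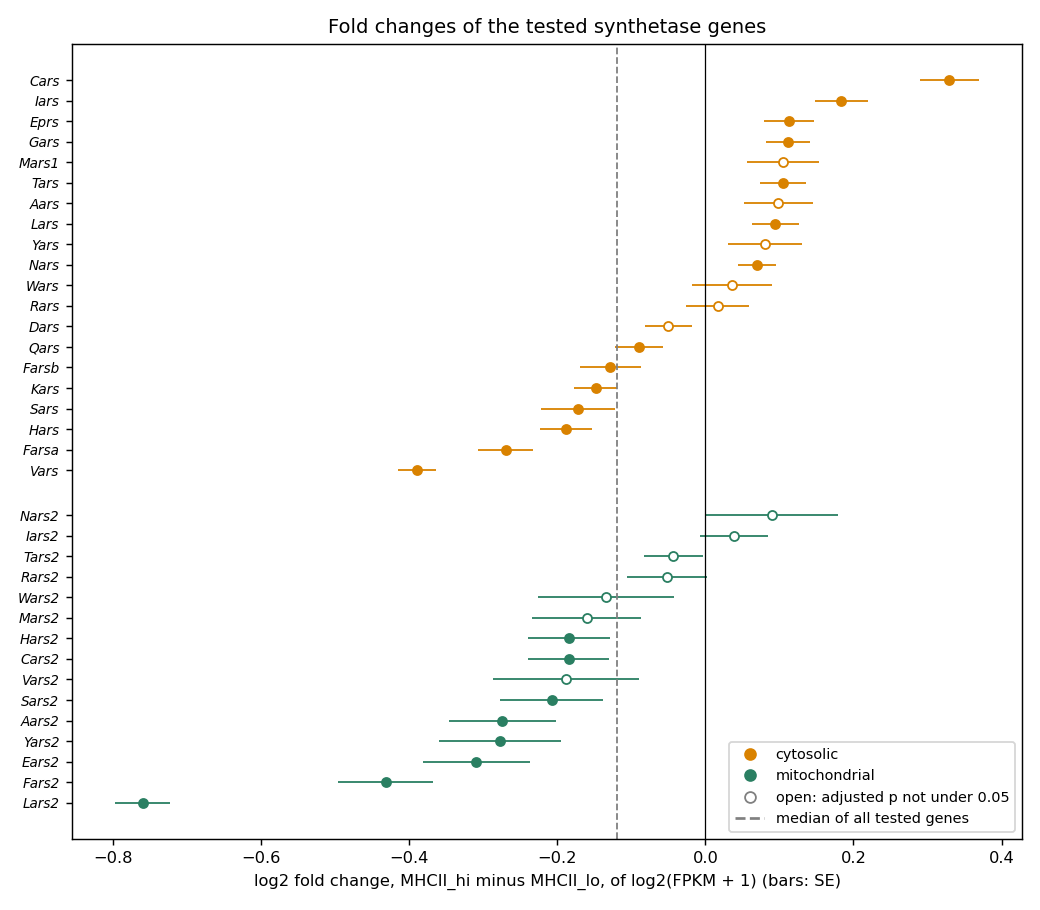
Log2 fold change of 35 of the 36 tested synthetase genes, MHCII_hi minus MHCII_lo on the log2(FPKM + 1) scale, with bars for the SE; filled points had an adjusted p under 0.05 and the dashed line is the median of all tested genes at −0.12. Cytosolic genes (orange) run between −0.39 and 0.33 and mitochondrial genes (green) between −0.76 and 0.09.

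Among cytosolic genes that were higher, the cysteine enzyme Cars changed most. Cars (chr7:143557230-143600090, minus strand) had 6.47, 6.74 and 6.60 FPKM in MHCII_hi and 5.01, 4.97 and 5.17 FPKM in MHCII_lo. The libraries of the groups lay apart, with every MHCII_hi value above every MHCII_lo value. The log2 fold change was 0.33 (SE 0.0402, limma adjusted p = 0.000421), or 0.45 relative to the median of all tested genes. Iars, the isoleucine enzyme of the multi-synthetase complex (chr13:49682100-49734267, plus strand), had 19.64, 20.57 and 19.25 FPKM in MHCII_hi, against 17.29, 16.99 and 17.70 FPKM in MHCII_lo. Again no libraries overlapped, and the log2 fold change was 0.18 (SE 0.036, limma adjusted p = 0.00403). A processed pseudogene, Gm4849, shares 1656 aligned bases with Iars at 96.0% identity, but was listed at 0.103 FPKM.

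The other increases were small. Gars, the glycine enzyme for both compartments (chr6:55038007-55079500, plus strand), had 40.66, 39.92 and 39.36 FPKM in MHCII_hi and 36.71, 38.04 and 36.09 FPKM in MHCII_lo, a log2 fold change of 0.11 (limma adjusted p = 0.0152). All MHCII_hi libraries exceeded all MHCII_lo libraries. Eprs, the fused glutamate and proline enzyme, had 10.45, 10.38 and 10.41 FPKM in MHCII_hi and 9.33, 9.68 and 9.65 FPKM in MHCII_lo. Tars, the threonine enzyme, averaged 12.7 ± 0.153 FPKM in MHCII_hi and 11.7 ± 0.0586 FPKM in MHCII_lo. Lars, the leucine enzyme, averaged 18.6 ± 0.329 FPKM in MHCII_hi and 17.3 ± 0.350 FPKM in MHCII_lo. In these genes and in Nars the libraries of the groups did not overlap, with log2 fold changes of 0.07 to 0.11 and limma adjusted p of 0.0223 to 0.0482. Calls of Cars, Gars and Iars held under all alternatives run. Eprs, Lars, Nars and Tars kept their call in 11, 10, 7 and 10 of 16 alternatives. All of them lost it without MHCII_hi replicate 2, without MHCII_lo replicate 1 and in the fit with a term for replicate number. Nars was not called in any fit that left out 1 library, nor without the filter on low values or the intensity trend. Eprs, Lars and Tars each lost their call in further fits that left out 1 library.

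The valine enzyme Vars fell most among cytosolic genes. Vars (chr17:35000987-35016322, plus strand) had 31.44, 31.27 and 30.43 FPKM in MHCII_hi and 41.09, 40.47 and 41.34 FPKM in MHCII_lo. The groups were far apart relative to the SD of 0.541 FPKM in MHCII_hi and 0.448 FPKM in MHCII_lo. The log2 fold change was −0.39 (SE 0.026, limma adjusted p = 2.21e-05), or −0.27 relative to the median of all tested genes. Farsa, the alpha subunit of the phenylalanine enzyme (chr8:84856989-84869257, plus strand), had 15.29, 16.32 and 15.23 FPKM in MHCII_hi and 19.31, 18.84 and 18.91 FPKM in MHCII_lo. Its log2 fold change was −0.27 (limma adjusted p = 0.000728), and no libraries overlapped. Its partner Farsb, the beta subunit, had 20.44, 21.21 and 20.88 FPKM in MHCII_hi and 22.88, 24.01 and 21.77 FPKM in MHCII_lo, with a log2 fold change of −0.13, close to the median of all tested genes.

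The remaining cytosolic genes called lower were Hars, Sars, Kars and Qars. Hars, the histidine enzyme, averaged 27.3 ± 1.02 FPKM in MHCII_hi and 31.2 ± 0.638 FPKM in MHCII_lo. Kars, the lysine enzyme for both compartments, averaged 32.0 ± 0.686 FPKM in MHCII_hi and 35.6 ± 0.683 FPKM in MHCII_lo. Sars, the serine enzyme, averaged 14.3 ± 0.917 FPKM in MHCII_hi and 16.3 ± 0.330 FPKM in MHCII_lo. Their log2 fold changes were −0.19, −0.15 and −0.17. Qars, the glutamine enzyme, had a log2 fold change of −0.09 (limma adjusted p = 0.0491), above the median of all tested genes, and its direction turned under 2 scalings, with 0.02 under median-ratio size factors and 0.04 with the total without neutrophil markers. Calls of Vars and Farsa held under all alternatives run, while Hars lost its call under the same 2 scalings, Kars under 3 of the 4 and Sars and Farsb under all 4. Farsb was also not called without 5 of the 6 libraries in turn or without the filter, nor Sars without MHCII_lo replicate 2 or 3. Qars was not called in any fit that left out 1 library, and kept its call in 3 of 16 alternatives.

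The 6 cytosolic genes without a call were Aars, Dars, Mars1, Rars, Wars and Yars. Aars, the alanine enzyme, had 9.87, 10.07 and 10.96 FPKM in MHCII_hi and 9.61, 9.35 and 9.68 FPKM in MHCII_lo. Yars, the tyrosine enzyme, had 9.27, 8.45 and 8.34 FPKM in MHCII_hi and 7.88, 8.25 and 8.33 FPKM in MHCII_lo. In both the libraries of the groups lay apart by a narrow margin, and limma gave adjusted p of 0.105 for Aars and 0.196 for Yars. The methionine enzyme Mars1 had a log2 fold change of 0.11 and overlapping libraries. Aars, Mars1 and Yars were called higher under all 4 other scalings, with limma adjusted p of 0.00705, 0.00655 and 0.0122 with the total without neutrophil markers, and Mars1 also without MHCII_lo replicate 3. Mars1 shares 68 exonic bases with Ddit3 on the other strand, a gene of 9.14 FPKM, and whether quantification used strand is not stated. Dars, Rars and Wars, the aspartate, arginine and tryptophan enzymes, had log2 fold changes of −0.05, 0.02 and 0.04. With the total without neutrophil markers, Rars and Wars were called higher, and Dars turned to 0.08 without a call.

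The leucine enzyme of mitochondria, Lars2, had the largest change of all 36 tested synthetase genes. Lars2 (chr9:123366927-123462666, plus strand) had 12.41, 12.76 and 13.23 FPKM in MHCII_hi and 22.18, 23.01 and 21.91 FPKM in MHCII_lo. The highest MHCII_hi library lay far below the lowest MHCII_lo library. The level in MHCII_hi was 0.572 times that in MHCII_lo, with a log2 fold change of −0.76 (SE 0.0368, limma adjusted p = 4.23e-06), or −0.64 relative to the median of all tested genes. Lars2 supplied 16.7 ± 0.418% of the summed mitochondrial synthetase FPKM in MHCII_hi and 24.0 ± 0.568% in MHCII_lo.

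The mitochondrial phenylalanine and glutamate enzymes came next. Fars2 (chr13:36117412-36726280, plus strand) had 2.21, 2.38 and 2.17 FPKM in MHCII_hi and 3.42, 3.61 and 3.14 FPKM in MHCII_lo, a log2 fold change of −0.43 (limma adjusted p = 0.0011). Ears2 (chr7:122037213-122067263, minus strand) had 1.15, 1.07 and 1.24 FPKM in MHCII_hi and 1.67, 1.62 and 1.71 FPKM in MHCII_lo, with −0.31 (limma adjusted p = 0.00876). In both genes the groups did not overlap, and both calls held under all alternatives run, as did that of Lars2. Fars2 shares 501 exonic bases on the other strand with Nrn1, listed at 0.0133 FPKM, and 115 with Lyrm4, at 4.52 FPKM. Ears2 likewise shares 89 with Ubfd1, at 2.79 FPKM, and Cars2 shares 422 with Naxd, at 4.93 FPKM. The other 5 mitochondrial genes called were lower with log2 fold changes between −0.28 and −0.18. They were Yars2, at 5.42 ± 0.431 FPKM in MHCII_hi and 6.79 ± 0.741 FPKM in MHCII_lo, Aars2, Sars2, Cars2 and Hars2. All 5 lost their call under median-ratio size factors and with the total without neutrophil markers. Yars2, Sars2, Cars2 and Hars2 also lost it under quantile normalization, with median centring and without the filter on low values. They kept it in 7 of 16, 5 of 15, 5 of 15 and 7 of 16 alternatives, and Aars2 in 12 of 15.

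The 8 mitochondrial genes tested without a call lay between −0.19 and 0.09. Iars2, the second most abundant, had 10.95, 11.31 and 10.26 FPKM in MHCII_hi and 10.31, 10.89 and 10.37 FPKM in MHCII_lo, with overlapping libraries. It was called higher under 2 scalings, with limma adjusted p of 0.0331 under median-ratio size factors and 0.024 with the total without neutrophil markers. Its exons share 2034 bases with Rab3gap2 on the other strand, a gene of 9.78 FPKM. Nars2, the asparagine enzyme, had a log2 fold change of 0.09, Tars2 and Rars2 of −0.04 and −0.05, which turned above 0 under all 4 other scalings, and Vars2, Mars2 and Wars2 of −0.19, −0.16 and −0.13.

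Summed over genes, the cytosolic set stood at 442 ± 0.953 FPKM in MHCII_hi and 454 ± 3.64 FPKM in MHCII_lo. The mitochondrial set summed to 76.7 ± 0.545 FPKM in MHCII_hi and 93.1 ± 0.660 FPKM in MHCII_lo. As a share of the cytosolic sum within the same library, which no factor applied to a whole library changes, the mitochondrial sum was 17.2, 17.3 and 17.5% in MHCII_hi and 20.8, 20.6 and 20.2% in MHCII_lo. Without Lars2, a choice made after its value was seen, the shares were 14.4 ± 0.0279% in MHCII_hi and 15.6 ± 0.243% in MHCII_lo. Libraries of the groups did not overlap in either form. Taken as a percentage of all FPKM other than the neutrophil markers, the mitochondrial set without Lars2 was at 0.0220 ± 0.000111% in MHCII_hi and 0.0222 ± 0.000202% in MHCII_lo, a ratio of 0.989. On the same basis the cytosolic set was at 0.152 ± 0.000762% in MHCII_hi and 0.143 ± 0.00108% in MHCII_lo, a ratio of 1.07, so its order turned against that of the summed FPKM.

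The mitochondrial gene was then set against the cytosolic gene of the same amino acid in each library, for the 16 amino acids with both genes tested. Fars2 was set against Farsa and Ears2 against Eprs. The log2 ratio was lower in every MHCII_hi library than in every MHCII_lo library for 10 amino acids, higher in all for 0, and overlapped for 6. Of all tested genes taken singly, 22.6% lay wholly higher and 45.0% wholly lower. The share for ratios of other gene pairs was not computed, so the count of 10 has no background of its own. With 3 libraries against 3, an exact two-sided permutation test cannot give a p under 0.1, and after adjustment over the 16 pairs the smallest was 0.16. No single pair can therefore pass 0.05. The median difference over pairs was −0.16.

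Leucine had the largest difference. Lars2 stood at 69.0 ± 1.36% of Lars in MHCII_hi and 129 ± 5.58% in MHCII_lo, the only pair in which the mitochondrial gene exceeded the cytosolic gene in either group. Cars2 stood at 54.7 ± 3.88% of Cars in MHCII_hi and 83.9 ± 3.55% in MHCII_lo. Ears2 stood at 11.1 ± 0.804% of Eprs in MHCII_hi and 17.5 ± 0.627% in MHCII_lo. In these pairs the cytosolic gene was higher and the mitochondrial gene lower in MHCII_hi. Aars2 against Aars, Yars2 against Yars, Mars2 against Mars1, Wars2 against Wars, Fars2 against Farsa, Tars2 against Tars and Iars2 against Iars also lay wholly lower. The pairs of histidine, asparagine, serine, arginine and valine were among those that overlapped. In the valine pair both genes had negative fold changes, with Vars2 at 11.4 ± 1.29% of Vars in MHCII_hi and 10.2 ± 1.06% in MHCII_lo. Hars and Hars2 start 197 bases apart on opposite strands and share 195 exonic bases, so their values are uncertain where strand was not used.

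**Figure D3:**
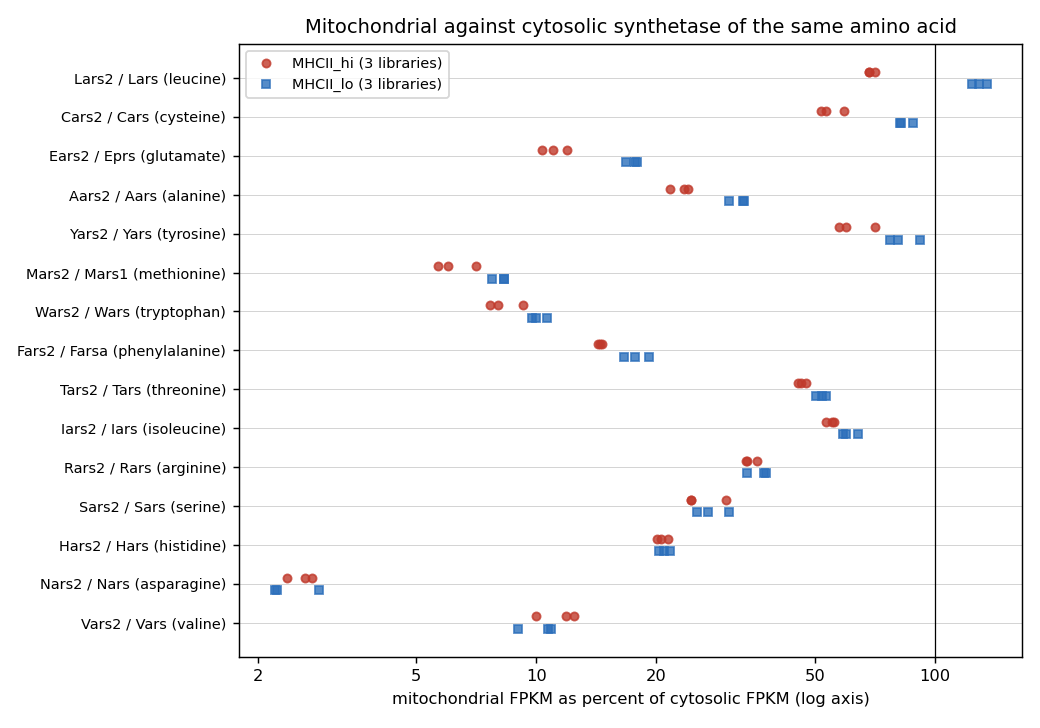
FPKM of the mitochondrial gene as a percentage of the cytosolic gene of the same amino acid, for 15 of the 16 pairs, on a log axis, with 1 point per library for MHCII_hi (red circles) and MHCII_lo (blue squares), ordered by the difference of the log2 ratio. The line marks 100%, which is exceeded in the 3 MHCII_lo libraries for leucine; the top 10 pairs do not overlap between the groups.

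The cytosolic genes were also grouped by complex, enzyme class and known regulation. Over all tested genes, 20.4% were called higher and 40.6% lower as deposited, and no test compared these small groups. Of the 8 genes of the multi-synthetase complex, 3 were higher and 2 lower, with a median log2 fold change of 0.06, and of the 12 outside it, 4 were higher and 5 lower, with a median of 0.05. Of 9 class I genes, 3 were higher and 2 lower, and of 10 class II genes, 3 were higher and 5 lower. Eprs belongs to both classes. In mitochondria, 4 of 9 class I and 4 of 7 class II genes were lower. These counts depend on scaling: under the 4 others, 4 or 5 complex genes were higher and 0 or 1 lower, 6 or 7 genes outside it were higher and 2 or 3 lower, and in cytosolic class II 4 were higher and 1 to 3 lower. Cytosolic class I then had 5 to 7 higher and 1 lower, and 2 class I and 1 or 2 class II mitochondrial genes were lower. Among 12 cytosolic genes known from the literature as Atf4 targets (Aars, Cars, Eprs, Gars, Iars, Lars, Mars1, Nars, Sars, Tars, Wars and Yars), 7 were higher, 1 was lower and 11 had a positive fold change, with a median of 0.10. Of the other 8 cytosolic genes, 0 were higher by limma, also at an unadjusted p under 0.05, and 6 were lower, with a median of −0.14. This grouping was drawn up after the values had been seen, so it is a description and no test was run on it. Under those scalings, 10 or 11 of the 12 were higher and 0 lower, and 0 or 1 of the other 8 were higher and 2 to 4 lower. The 5 cytosolic genes with the element shown above had log2 fold changes of 0.08 to 0.18, 3 of them called higher. The 8 with a window but no match ran between −0.27 and 0.11, with 1 called higher and 5 lower. No window was at hand for Cars, Lars and Nars (higher), Hars and Vars (lower) or Rars and Wars (not called). This split was not among the planned comparisons either, and no test was run on it.

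Genes of the amino acid response were called in both directions. Of 28 genes of the amino acid response, 23 were tested, 8 were higher, 7 were lower and the median log2 fold change was −0.03. Under the other scalings, 9 or 10 were higher and 3 to 5 lower, with medians of 0.05 to 0.08. Sesn2, a leucine sensor that restrains mTORC1, had 6.45, 5.6 and 6.04 FPKM in MHCII_hi and 3.38, 3.24 and 3.14 FPKM in MHCII_lo, a log2 fold change of 0.72 (limma adjusted p = 5.76e-05). Asns, the asparagine synthetase that is a standard Atf4 target, had 23.08, 21.32 and 20.98 FPKM in MHCII_hi and 12.88, 15.01 and 14.63 FPKM in MHCII_lo, or 0.59 (limma adjusted p = 0.00024). In both genes all MHCII_hi libraries were the higher ones. Ppp1r15a, which directs dephosphorylation of eIF2 alpha, averaged 34.6 ± 0.741 FPKM in MHCII_hi and 59.2 ± 1.13 FPKM in MHCII_lo, or −0.76. Cebpg, a C/EBP partner of Atf4, averaged 6.82 ± 0.410 FPKM in MHCII_hi and 11.2 ± 0.466 FPKM in MHCII_lo, or −0.64. Cebpb, another C/EBP gene of the list and named here after its value was seen, went the other way. It averaged 78.0 ± 1.86 FPKM in MHCII_hi and 64.1 ± 0.471 FPKM in MHCII_lo, or 0.28 (limma adjusted p = 8.96e-05). Atf4, named here after its value was seen, had 128.18, 131.73 and 129.00 FPKM in MHCII_hi and 146.17, 148.91 and 149.14 FPKM in MHCII_lo, a log2 fold change of −0.19 (limma adjusted p = 0.000208), or −0.07 relative to the median of all tested genes. Atf4 is controlled largely at translation, which these libraries do not measure. The 5 genes of the list under 1 FPKM on average were Trib3, Chac1, Cth, Gpt2 and Vldlr, and none of them was tested. Trib3, Chac1 and Vldlr averaged 0.71, 1.35 and 0.70 FPKM in MHCII_hi. In MHCII_lo they averaged 0.24, 0.30 and 0.22 FPKM, without overlap of libraries. The libraries of Cth and Gpt2 overlapped.

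Genes that supply amino acids or act on the same tRNAs were called lower more often than higher, as were genes at large. Of 14 amino acid transporters tested, 3 were higher and 7 lower, with a median of −0.14, and 3 were higher and 4 to 6 lower under the other scalings. Slc7a8 and Slc7a1, carriers of neutral and of cationic amino acids, had log2 fold changes of 0.34 and 0.25. Slc38a2, a sodium-coupled carrier of neutral amino acids, averaged 25.4 ± 0.405 FPKM in MHCII_hi and 38.5 ± 0.469 FPKM in MHCII_lo, or −0.58, and Slc43a1, a carrier of large neutral amino acids, had −0.40. Of the 3 scaffold genes of the multi-synthetase complex, Aimp1 and Eef1e1 were lower, with −0.29 and −0.28, and Aimp2 had 0.11 without a call, but was called higher under median-ratio size factors and with the total without neutrophil markers. The call of Eef1e1 was lost under median-ratio size factors and with the total without neutrophil markers. Of 5 genes for editing and related proteins, 0 were higher and 4 lower, also at an unadjusted limma p under 0.05. Aarsd1, which clears mischarged alanyl-tRNA, had −0.37, and Dtd1, which removes D-amino acids from tRNA, had −0.27. Under the other scalings 1 or 2 of these 5 were lower, and Dtd1 lost its call under 3 of them.

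In mitochondria, 17 genes that mature, modify or amidate tRNAs gave 2 higher and 8 lower, with a median of −0.18, the same as that of the mitochondrial synthetases at this precision. Under the other scalings 2 were higher and 2 or 3 lower. Trit1, which adds an isopentenyl group to tRNA in the cytosol and in mitochondria, had 4.98, 5.41 and 4.38 FPKM in MHCII_hi and 7.60, 7.78 and 8.38 FPKM in MHCII_lo, or −0.59 (limma adjusted p = 0.000435). Every MHCII_lo library was above every MHCII_hi library. Trmt61b, a mitochondrial tRNA methyltransferase, had −0.37. Nsun3 and Cdk5rap1, which modify mitochondrial tRNAs, were higher with 0.23 and 0.45, and the libraries of Cdk5rap1 overlapped. Both calls were lost without the filter on low values, that of Nsun3 also in 5 of the 6 fits that left out 1 library and that of Cdk5rap1 in 4 of them and without the intensity trend. Of the glutamine route, which stands in for a mitochondrial glutamine enzyme and is named here after its values were seen, Gatc had −0.26 with overlapping libraries and a call that was lost under all 4 other scalings, without the filter, without the trend and in 4 fits that left out 1 library. Gatb and Qrsl1 had −0.21 and −0.09 without a call. Of 12 mitochondrial translation factors tested, limma called 0 higher and 2 lower (Mtrf1l at −0.28 and Tufm at −0.18), the same counts as at an unadjusted p under 0.05. Both calls were lost under all 4 other scalings, and 1 or 2 factors were then higher.

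On the cytosolic side, elongation and termination factors were lower in 7 of 11 genes and higher in 1. Eef2, the translocase of the ribosome, averaged 535 ± 2.84 FPKM in MHCII_hi and 760 ± 4.06 FPKM in MHCII_lo, or −0.51, and Eef1b2, an exchange factor for Eef1a, had −0.49. Eif4ebp1, a repressor of cap-dependent initiation and an Atf4 target, was the gene that was higher, with 0.31. Of 37 tested genes of tRNA biogenesis and modification, 2 were higher and 16 lower, with a median of −0.12 equal to that of all tested genes. Under the other scalings 4 or 5 were higher and 7 to 10 lower. Trmt1 and Ctu1, which methylate guanosine and thiolate uridine in tRNA, both had −0.56. Trdmt1, a cytosine methyltransferase, had 0.38.

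**Figure D4:**
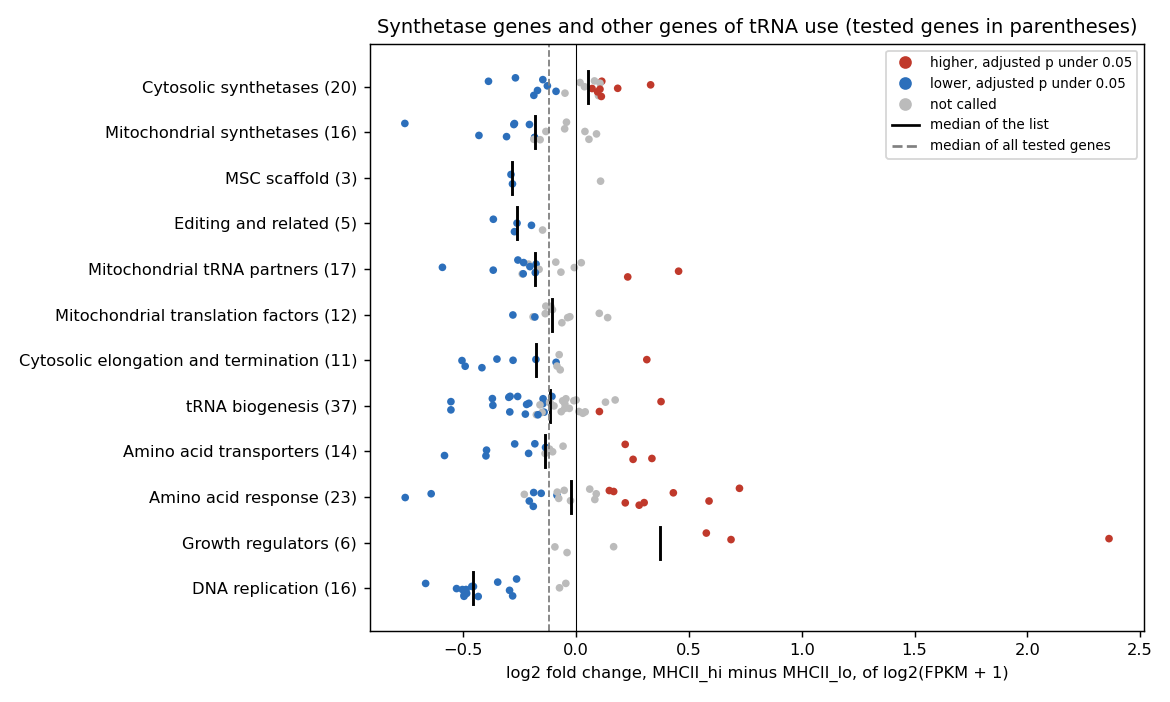
Log2 fold change, MHCII_hi minus MHCII_lo on the log2(FPKM + 1) scale, of each tested gene in the 2 synthetase sets and 10 related lists, with 1 point per gene, a bar for the median of each list and a dashed line for the median of all tested genes at −0.12. The cytosolic synthetase median of 0.05 lies to the right of that line and the DNA replication median of −0.46 to the left.

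Regulators of growth and replication give the setting of these changes. Myc, which drives many genes of protein synthesis, averaged 32.5 ± 1.42 FPKM in MHCII_hi and 34.8 ± 1.10 FPKM in MHCII_lo and was not called (limma adjusted p = 0.0793), though it was without MHCII_hi replicate 1 (−0.13, limma adjusted p = 0.0279) and its value turned above 0 under 2 scalings. Max, the dimer partner of Myc, averaged 44.8 ± 0.502 FPKM in MHCII_hi and 27.5 ± 1.31 FPKM in MHCII_lo, or 0.69. Mxd1, which competes with Myc for Max and is known to increase in granulocyte differentiation, had 82.76, 83.92 and 83.23 FPKM in MHCII_hi and 15.85, 15.45 and 14.91 FPKM in MHCII_lo, or 2.36. Of 6 tested growth regulators, 3 were higher and 0 lower by limma, against 4 and 0 at an unadjusted p under 0.05. Of 16 DNA replication genes, limma called 0 higher and 14 lower, against 0 and 15 at an unadjusted p under 0.05, with a median of −0.46. Gins2 and Pcna, parts of the replication machinery, had −0.67 and −0.53. The marker lists of other cell types differ between MHCII_hi and MHCII_lo by the values given above, and their part in each difference was not tested beyond the rescaled total.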

How the data were processed

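RNA was measured in 6 libraries, 3 of MHCII_hi and 3 of MHCII_lo cells, grouped by the labels. Extraction used a micro-scale column kit and libraries came from a stranded mRNA kit, per the labels' protocols. The submitters' processing notes name fastp, HISAT2, StringTie and GRCm38 (mm10), without versions. The authors deposited 1 table per library with 1 value per gene. No header names the unit, which was inferred to be FPKM from 2-decimal values with sums of 327291 to 346595 that are not fixed, and StringTie writes FPKM. These deposited FPKM carry no depth: no step of 1 read was found in low values (largest mean cosine 0.0961), so the depth is unknown and no counting interval is given. FPKM are shares, so an abundant gene set lowers all others.

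Repeated symbols (70 extra rows, none a synthetase) kept the row with the highest mean. Values were taken as log2(FPKM + 1), which understates changes of low genes, for genes averaging 1 FPKM or more. They were compared with limma 3.58.1 (R 4.3.3), with an intensity trend and no term but group, and p-values were adjusted by Benjamini-Hochberg over all 12037 genes at 0.05. The fit was tested on simulated data of 12037 genes, with 50 changed genes per fold. It recovered 54% of 1.25-fold, 82% of 1.5-fold and 94% of 2-fold changes, with 9 false calls among 174. Far fewer genes changed there than were called in the data, and a gene without a call may still differ by a small amount. Ratios of mitochondrial to cytosolic genes, on the same scale, were compared by exact two-sided permutation over libraries. Gene positions come from the GENCODE annotation of GRCm38 and sequences from RefSeq (GRCm38.p6). All else ran in Python 3.11.15, using scipy 1.17.1, numpy 2.4.6 and pandas 2.3.3. Named genes were all synthetase genes and, of each related list, the 2 called genes with the largest increase and the 2 with the largest decrease; a few items are counted but not reported here. The synthetase genes, lists and rules were chosen with earlier results of these data known. Alternatives were other pseudocounts (0.1 and 5), filters (none and 5 FPKM), 4 scalings, no intensity trend, the replicate number as a block and leaving out each library; counting without Lars2 was added after its value was seen.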

Additional observations from a re-analysis of the deposited data

How the results depend on the processing

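Medians and counts moved with the scaling, the filter and the libraries used. Over all tested genes, the median log2 fold change was −0.1415 with a pseudocount of 0.1, −0.0722 with 5, −0.0154 without a filter, −0.1252 with a mean of at least 5 FPKM, −0.0225 with median-ratio size factors, −0.0664 with quantile normalization, −0.0471 with median centring and −0.0106 with the total without neutrophil markers, where 3122 genes were lower. Of all calls, 33.4% were higher as deposited, 49.8% with median-ratio size factors, 41.1% with quantile normalization, 44.8% with median centring and 52.1% without neutrophil markers. In the same order of scalings, the cytosolic median was 0.1655, 0.0862, 0.1256 and 0.1785, with 11, 10, 10 and 12 genes higher and 2, 4, 3 and 2 lower, and the mitochondrial median was −0.0909, −0.1135, −0.1120 and −0.0812, with 1, 0, 0 and 1 genes higher and 3, 4, 4 and 3 lower. The mitochondrial median was −0.1021 with a pseudocount of 5 and −0.0514 with a mean of at least 5 FPKM, where 7 genes were tested and 3 were lower. With that filter the mitochondrial median lay above the −0.1252 of all tested genes, the reverse of the order as deposited. Without a filter 4 mitochondrial genes were lower, and counted without Lars2, 7 were. Leaving out 1 library gave 3 to 6 cytosolic genes higher, 4 to 5 lower and 4 to 7 mitochondrial genes lower, as fewer libraries entered. With the replicate number as a block, 3 cytosolic genes were higher and 6 lower, and 5 mitochondrial genes were lower. Deviations of same-numbered libraries from their group means correlated at −0.0533, −0.0455 and −0.0434, and those of differently numbered libraries at 0.00409 to 0.0409. Deviations from a mean of 3 libraries are tied to each other, so these values cannot settle whether the numbers pair the libraries. Under median-ratio size factors and without neutrophil markers, signs turned for Qars (0.0222 and 0.0356), Dars (0.0650 and 0.0788), Rars2 (0.0544 and 0.0671), Tars2 (0.0574 and 0.0695), Myc (0.0195 and 0.0332) and Qrsl1 (0.0001 and 0.0110). They turned under median centring for Dars (0.0224), Rars2 (0.0210) and Tars2 (0.0291), and under quantile normalization for Rars2 (0.0006) and Tars2 (0.0210). With 1 library left out, Rars ran between −0.0170 and 0.0466 and Ddit3 between −0.0152 and 0.1438. The differences in log2 ratio of pairs that overlapped changed sign: Hars2 to Hars was −0.0173 with a pseudocount of 0.1. With 1 library left out, it ran between −0.0160 and 0.0251, Nars2 to Nars between −0.0213 and 0.0903 and Sars2 to Sars between −0.1197 and 0.0240. For 39 genes of the related lists, 539 of 612 values under the alternatives kept direction and call, 64 lost the call, 4 gained it and 5 changed sign. Where no cause is given by the setting itself, the cause was not tested. Depth is unknown, so low genes such as Pars2 and Wars2 are limited by it to an extent that the values do not show.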
